A study of Homo sapiens with 15 samples.

Results

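The 10 genes described here encode secreted signals of A549 cells, the neutrophil-attracting chemokines CXCL1, CXCL2, CXCL3, CXCL5 and CXCL8, the chemokine CCL20, the IL-6 family cytokines IL6, IL11 and LIF, and the stress cytokine GDF15. They were chosen by symbol, with earlier results of these data known, and are 10 of the 43388 genes counted in each library. A549 is an immortal human cell line of lung adenocarcinoma origin. Cells were kept for 72 hours either in hyperoxia, at 95% oxygen, or in normoxia, at 21% oxygen, and then harvested. At each oxygen exposure, 3 libraries came from cells given 1e-05 mM all-trans retinoic acid (ATRA), the vitamin A derivative that binds retinoic acid receptors, and 2 from cells given its vehicle, ethanol, in both cases beginning 24 hours before the oxygen exposure. A further 2 libraries at each oxygen exposure carried labels that name the oxygen condition and no added agent, and are called untreated here. Nothing in the labels says that the libraries of a group came from separate cultures, so p-values measure the spread between these libraries, which may be technical. One more library, with conflicting labels, entered no comparison.

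Chemokines whose sequence carries a Glu-Leu-Arg motif before the CXC cysteines bind CXCR1 and CXCR2 on neutrophils, and CCL20 binds CCR6 on lymphocytes and dendritic cells. IL6, IL11 and LIF each use a further receptor chain together with gp130 (IL6ST), which activates JAK kinases and STAT3. GDF15 is a distant member of the TGF-beta superfamily that many cells secrete under stress, and its receptor GFRAL is known from the hindbrain. In lung epithelium the chemokine genes are known to be driven by NF-kB and AP-1 factors. GDF15 is linked to the transcription factor p53 and is a known target of the integrated stress response.

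The depth sets which of these genes can be compared. Libraries held between 2642377 and 5605072 counts on genes, so that 3 counts correspond to a normalised level between 0.531 and 1.15 CPM, the count scaled to library size, a limit that covers counting error only. GDF15 (16229 counts over the 14 labelled libraries), LIF (7143 counts) and CXCL5 (5341 counts) had counts in all 14 libraries. CXCL2 had 245 counts, IL11 224, CXCL1 158, CXCL8 89 and CXCL3 87, with at least 1 library at 0 for each. These 5 genes passed the filter on low counts but no library held more than 44 counts of any of them. CCL20 and IL6 had too few counts and were not tested. CCL20 had 34 counts in all and at most 12 in a library, and IL6 had 3 counts in all, 1 in a hyperoxia vehicle library and 2 in a hyperoxia ATRA library. In the other 12 libraries IL6 was at 0, which allows a level of up to 1.15 CPM in the shallowest of them.

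Of the marker lists used to check the cells, KRT8 and KRT18, keratins of simple epithelium, were abundant with 177346 and 97210 counts over the 14 libraries. The alveolar markers NKX2-1 (2 counts), SFTPC (3 counts) and SFTPB (12 counts) were near 0. Defining markers of leukocytes (PTPRC 1 count, CD3E 0), fibroblasts (DCN 0, COL1A2 1) and endothelial cells (VWF 0, TEK 0) were at or near 0 as well. Other genes of these lists were counted, with 418 counts of ITGAM, of which 158 in a single library, and 265 of CD14 among the leukocyte markers, and 371 of THY1 and 196 of COL1A1 among the fibroblast markers. Among the endothelial markers CDH5 had 37 counts, with up to 20 in a library, and PECAM1 had 11. The summed level of the 9 epithelial markers lay between 1689 and 4216 CPM in hyperoxia libraries and between 5756 and 9585 CPM in normoxia libraries, all 9 being detected. The summed level of the 7 leukocyte markers was 6.20 to 31.6 CPM in hyperoxia and 3.71 to 17.2 CPM in normoxia libraries, that of the 7 fibroblast markers 0 to 7.67 and 9.07 to 23.2 CPM, and that of the 5 endothelial markers 0 to 0.354 and 0 to 6.27 CPM. Whether the lower summed epithelial and fibroblast marker levels in hyperoxia had a part in the results below was not tested. The library of untreated cells in hyperoxia labelled replicate 1 detected the fewest genes, 12657 against up to 20108 in other libraries, and the counts of called genes that rest on it are also given without it. Hyperoxia ATRA replicate 1, the deepest library at 5605072 counts, detected 16466 genes. Hyperoxia vehicle replicate 2 detected 19874 genes at 5516571 counts. Hyperoxia ATRA replicate 1 held 0 counts of CXCL2, CXCL3 and IL11. Whether its low number of detected genes had a part in this was not tested.

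The 5 CXC genes lie close together on chromosome 4 (GRCh38.p14), in the order CXCL8 (chr4:73740569-73743716, + strand), CXCL1 (chr4:73869393-73871308, + strand), CXCL5 (chr4:73995642-73998677, - strand), CXCL3 (chr4:74036589-74038689, - strand) and CXCL2 (chr4:74097040-74099195, - strand). The promoter sequences of the 4 that share an element are shown because the NF-kB factors that such an element is named for are among the genes compared below. Each line gives the 120 bases directly before the annotated RefSeq start, 5′ to 3′, and capitals mark the NF-kB consensus match.
CXCL1 (chr4:73869273-73869392, + strand): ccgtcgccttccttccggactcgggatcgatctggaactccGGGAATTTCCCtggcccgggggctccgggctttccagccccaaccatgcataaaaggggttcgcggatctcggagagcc
CXCL2 (chr4:74099196-74099315, - strand): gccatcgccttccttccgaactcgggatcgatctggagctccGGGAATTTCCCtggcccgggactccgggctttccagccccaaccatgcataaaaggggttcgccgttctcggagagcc
CXCL3 (chr4:74038690-74038809, - strand): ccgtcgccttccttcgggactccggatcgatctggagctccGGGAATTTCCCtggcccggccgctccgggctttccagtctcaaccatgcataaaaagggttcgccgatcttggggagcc
CXCL5 (chr4:73998678-73998797, - strand): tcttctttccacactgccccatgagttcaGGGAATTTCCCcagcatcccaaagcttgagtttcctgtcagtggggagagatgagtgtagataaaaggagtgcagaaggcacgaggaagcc
The same 11 bases, GGGAATTTCCC, stood in all 4 promoters, ending 69 bases before the start in CXCL1 and CXCL3, 68 in CXCL2 and 81 in CXCL5. Over the 250 bases before the start, CXCL1 and CXCL3 were 81.4% identical, CXCL1 and CXCL2 70.1%, and CXCL1 and CXCL5 52.8%. With both strands searched, the NF-kB consensus matched 7 of the 9 member promoters that the reference table holds, those of CCL20, IL6 and GDF15 included, and 9.96% of all 35116 promoters of that length. CXCL8 and IL11 had no match to these letters in that window, and LIF has no entry. The CXCL8 promoter holds tggaatttcc, which differs from the GGGAATTTCC of the 4 promoters at its first base only. A missing match to the consensus therefore does not show that such an element is absent. The transcripts of the 3 close paralogs also share stretches: 5.33% of the 50-base windows of CXCL1, 10.1% of those of CXCL2 and 5.26% of those of CXCL3 occur in another of these genes, and none of those of CXCL5 or CXCL8 do. How the counting treated reads from such stretches is not stated, so the small counts of CXCL1, CXCL2 and CXCL3 are uncertain to that extent.

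The promoters of GDF15 and IL11 are shown because these genes gave the largest fold changes among the members. Capitals mark TATAAA and the GC box GGGCGG in GDF15 and the AP-1 motif TGANTCA in IL11, on either strand.
GDF15 (chr19:18386038-18386157, + strand): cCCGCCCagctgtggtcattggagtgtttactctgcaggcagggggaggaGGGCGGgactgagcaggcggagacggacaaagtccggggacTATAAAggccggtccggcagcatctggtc
IL11 (chr19:55370464-55370583, - strand): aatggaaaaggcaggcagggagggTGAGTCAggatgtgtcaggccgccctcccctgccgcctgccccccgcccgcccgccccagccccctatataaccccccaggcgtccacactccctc
TATAAA occurred in 3 of the 9 member promoters and in 10.7% of all promoters, GGGCGG in 4 of the 9 and in 42.6%, and TGANTCA in CXCL8 and IL11 and in 6.57%. The cAMP response motif TGACGT was found in CXCL2 and IL6 (7.10% of all promoters) and AGGTCA, a nuclear receptor motif, in CCL20 and IL11 (12.1% of all promoters). The p53 motif that was searched for was found in 0 of the 9 member promoters, GDF15 included, and in 5.57% of all promoters. A match is a description of the letters only, and a missing match does not show that such a site is absent.

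GDF15 was upregulated in hyperoxia under each of the 3 treatments. In vehicle libraries its level was 380 and 428 CPM in hyperoxia and 114 and 127 CPM in normoxia. In ATRA libraries it was 467, 493 and 548 CPM in hyperoxia and 82.6, 65.1 and 112 CPM in normoxia, and in untreated libraries 399 and 460 CPM against 73.9 and 102 CPM. All 7 hyperoxia libraries stood above all 7 normoxia libraries, with no overlap and a gap from 127 to 380 CPM. The fold change was 3.35 with vehicle (log2 fold change 1.74, SE 0.18, edgeR quasi-likelihood test, adjusted p = 3.81e-07), 5.79 with ATRA (log2 fold change 2.53, SE 0.15, adjusted p = 1.32e-10) and 4.88 without either (log2 fold change 2.29, SE 0.21, adjusted p = 4.04e-06). By p-value GDF15 ranked 103 of 14957 genes with vehicle, 12 of 14957 with ATRA and 43 of 15339 in untreated cells. The untreated log2 fold change stayed between 2.03 and 2.50 when each untreated library was left out in turn, with no replicate then left in that group.

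The level of GDF15 differed less between ATRA and vehicle than between oxygen exposures. In hyperoxia the mean was 502 ± 41.7 CPM with ATRA (SD, n = 3) and 404 ± 33.8 CPM with vehicle (SD, n = 2), and the libraries of these groups did not overlap. That difference did not pass the test (log2 fold change 0.31, SE 0.15, edgeR adjusted p = 0.3801). In normoxia the mean was 86.4 ± 23.5 CPM with ATRA (SD, n = 3) and 120 ± 9.44 CPM with vehicle (SD, n = 2), again without overlap and again short of the threshold (log2 fold change -0.48, SE 0.17, edgeR adjusted p = 0.271). The oxygen effect was 0.79 larger with ATRA than with vehicle on the log2 scale (SE 0.23), a difference that edgeR did not call (adjusted p = 0.320) and that DESeq2 on the same genes did (adjusted p = 0.0192). Leaving out normoxia ATRA replicate 3, the highest of its group, gave an adjusted p of 0.0345 for that difference and 0.0206 for ATRA against vehicle in normoxia. The annotated microRNA gene inside GDF15, MIR3189, held 0.746% as many counts as GDF15.

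**Figure D1:**
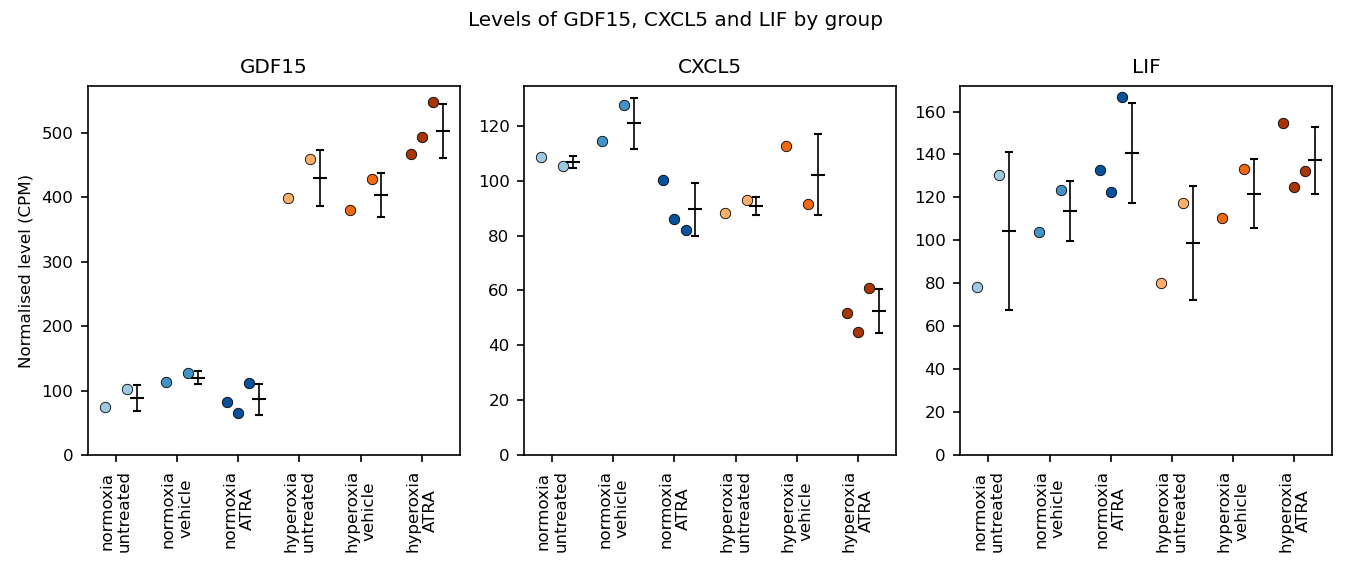
Normalised level in CPM (vertical axes, from 0) of GDF15, CXCL5 and LIF in the 14 labelled libraries, grouped by oxygen exposure and treatment. Points are libraries and the bars beside them are the mean and SD of the group (n = 2, or 3 for ATRA). GDF15 is at 380 CPM or above in every hyperoxia library and at 127 CPM or below in every normoxia library, CXCL5 is lowest in the hyperoxia ATRA libraries, and the groups of LIF overlap.

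CXCL5, a neutrophil chemokine first described in epithelial cells, held most of the CXC chemokine counts and was downregulated by ATRA in hyperoxia. Its share of the summed counts of the 5 CXC genes was between 79.6% and 94.3% across the 14 libraries, with a median of 91.0%. In hyperoxia its level was 51.7, 44.9 and 61.0 CPM with ATRA and 113 and 91.6 CPM with vehicle. In normoxia it was 100.4, 86.0 and 82.2 CPM with ATRA and 114 and 127 CPM with vehicle, and the untreated libraries read 88.3 and 93.0 CPM in hyperoxia and 108 and 105 CPM in normoxia. Each of the 3 hyperoxia ATRA libraries was below every other library. The fold change for ATRA against vehicle in hyperoxia was 0.519 (log2 fold change -0.95, SE 0.16, edgeR adjusted p = 0.00166), and for hyperoxia against normoxia with ATRA 0.590 (log2 fold change -0.76, SE 0.15, edgeR adjusted p = 0.000763). The first of these calls was lost without hyperoxia vehicle replicate 1 (log2 fold change -0.80, edgeR adjusted p = 0.0967), and the second held without each library in turn.

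The other CXCL5 comparisons did not pass the test, although all had the same sign. ATRA against vehicle in normoxia gave a log2 fold change of -0.44 (SE 0.16, edgeR adjusted p = 0.317) with no overlap between the libraries. Hyperoxia against normoxia gave -0.25 (SE 0.17, adjusted p = 0.385) with vehicle and -0.24 (SE 0.18, adjusted p = 0.383) in untreated cells. The difference between the ATRA effects at the 2 oxygen exposures, -0.51 on the log2 scale (SE 0.23), was not called either (edgeR adjusted p = 0.648), so that the ATRA effect on CXCL5 is not shown to differ between hyperoxia and normoxia.

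CXCL2 held the next highest count among the CXC genes and its hyperoxia libraries were high with vehicle. Its counts were 41 and 44 in hyperoxia vehicle, 14 and 8 in normoxia vehicle, 27 and 19 in hyperoxia untreated and 15 and 10 in normoxia untreated libraries. With ATRA they were 0, 11 and 22 in hyperoxia and 13, 13 and 8 in normoxia. The vehicle and the untreated groups did not overlap between oxygen exposures, and the ATRA groups did. The log2 fold change of hyperoxia against normoxia was 1.63 with vehicle (SE 1.01, edgeR adjusted p = 0.315), 1.11 in untreated cells (SE 1.15, adjusted p = 0.545) and -0.07 with ATRA (SE 0.85, adjusted p = 0.969). When only the 4 vehicle libraries were fitted, the vehicle difference passed the threshold (log2 fold change 1.70, edgeR adjusted p = 0.0162). The value with ATRA changed sign without hyperoxia ATRA replicate 1, the library at 0 (log2 fold change 0.58).

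CXCL1, CXCL3 and CXCL8 were at the limit of what these libraries can show. CXCL1 had between 0 and 24 counts in a library, CXCL3 between 0 and 18 and CXCL8 between 0 and 19. No comparison of these 3 genes passed the edgeR threshold, and their standard errors were between 0.77 and 1.81 on the log2 scale, so that differences of 2-fold were not detectable at this depth. For CXCL3 the hyperoxia ATRA libraries had 0, 3 and 1 counts and the normoxia ATRA libraries 5, 3 and 12 (log2 fold change -2.19, SE 1.23, adjusted p = 0.217). For CXCL8, a potent neutrophil attractant, the hyperoxia libraries had 3, 7 and 19 counts with ATRA and 7 and 19 with vehicle, against 9, 0 and 0 with ATRA and 3 and 6 with vehicle in normoxia. The vehicle groups of CXCL8 did not overlap and the ATRA groups did (log2 fold change 1.29, SE 1.39, adjusted p = 0.604, and 1.62, SE 1.19, adjusted p = 0.361). CXCL8 passed the filter on low counts only through hyperoxia libraries, where it is high. Its tests between oxygen exposures are therefore not independent of that selection, and its counts are the description. CXCL1, with 19, 8 and 24 counts in hyperoxia ATRA and 9, 3 and 11 in normoxia ATRA libraries, gave a log2 fold change of 0.97 (SE 0.77, adjusted p = 0.404).

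CCL20, which attracts CCR6-bearing lymphocytes, was counted but not tested. Its 34 counts included 12, 0 and 6 in the hyperoxia ATRA libraries, 3 and 3 in hyperoxia vehicle, and 0 in each of the 3 normoxia ATRA libraries. In normoxia vehicle libraries it had 0 and 6 counts, and no untreated library held more than 2. The hyperoxia ATRA and normoxia ATRA libraries overlapped at 0.

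**Figure D2:**
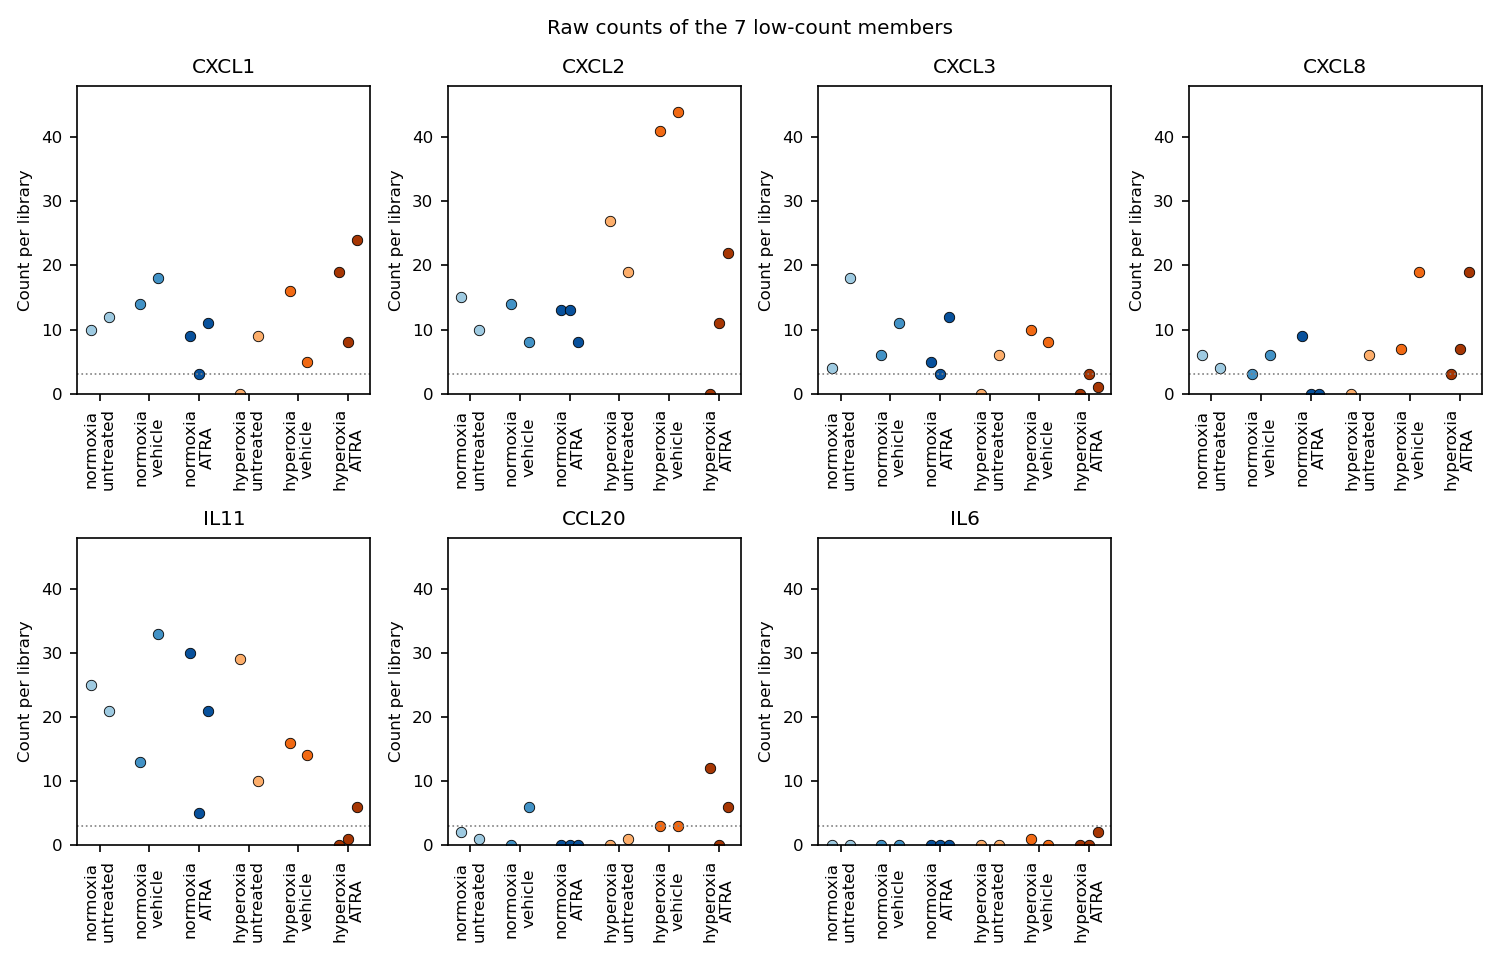
Raw counts per library (vertical axes, all on the same scale) of the 7 low-count members, grouped by oxygen exposure and treatment. Each point is a library of the 14 labelled ones and the dotted line is at 3 counts. CXCL2 is highest in the hyperoxia vehicle libraries with 41 and 44 counts, IL11 is lowest in the hyperoxia ATRA libraries with 0, 1 and 6, and IL6 has 3 counts in all.

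IL11, a gp130 cytokine known for its part in fibrosis and in platelet formation, was downregulated in hyperoxia in the presence of ATRA, at counts that leave the size uncertain. Its counts were 0, 1 and 6 in hyperoxia ATRA libraries and 30, 5 and 21 in normoxia ATRA libraries. With vehicle they were 16 and 14 in hyperoxia and 13 and 33 in normoxia, and in untreated libraries 29 and 10 in hyperoxia and 25 and 21 in normoxia. As normalised levels the ATRA groups did not overlap, at 0, 0.383 and 1.42 CPM in hyperoxia and 7.84, 1.56 and 5.48 CPM in normoxia, although the nearest libraries of the groups held 6 and 5 counts. The log2 fold change with ATRA was -3.02 (SE 0.95, edgeR adjusted p = 0.0239), and the call was lost without hyperoxia ATRA replicate 1 (log2 fold change -2.32, adjusted p = 0.0538), hyperoxia ATRA replicate 2 (-2.91, 0.0502), normoxia ATRA replicate 1 (-2.53, 0.120) or normoxia ATRA replicate 3 (-2.98, 0.0580). In the fit of all 14 libraries it also missed the threshold (log2 fold change -3.01, adjusted p = 0.0604). ATRA against vehicle in hyperoxia gave -2.44 (SE 1.01, adjusted p = 0.275) although all 3 ATRA libraries lay below both vehicle libraries. Hyperoxia against normoxia gave -0.65 (SE 0.96, adjusted p = 0.726) with vehicle and -0.12 (SE 1.05, adjusted p = 0.951) in untreated cells.

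LIF, which signals through LIFR and gp130 and is known to maintain stem cell identity in culture, was abundant and passed the test in no comparison. Its level was 110.5 and 133 CPM in hyperoxia vehicle and 104 and 124 CPM in normoxia vehicle libraries. With ATRA it was 154, 125 and 133 CPM in hyperoxia and 133, 123 and 167 CPM in normoxia, and the untreated libraries read 80.1 and 118 CPM in hyperoxia and 78.2 and 130.3 CPM in normoxia. The oxygen groups overlapped under every treatment, while in normoxia the ATRA libraries overlapped the vehicle libraries by 1 library. The log2 fold changes of hyperoxia against normoxia were 0.10 (SE 0.17, edgeR adjusted p = 0.778) with vehicle, -0.03 (SE 0.14, adjusted p = 0.897) with ATRA and -0.08 (SE 0.24, adjusted p = 0.846) in untreated cells. ATRA against vehicle gave 0.30 (SE 0.16, adjusted p = 0.633) in normoxia and 0.17 (SE 0.16, adjusted p = 0.700) in hyperoxia. The antisense genes LIF-AS1 and LIF-AS2 overlap LIF and together held 1.05% as many counts.

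Counted over the members, few passed the test in any comparison. In hyperoxia against normoxia 1 of the 8 tested members was called with vehicle (GDF15, upregulated), where 17.5% of all 14957 genes tested were called. With ATRA 3 of the 8 were called, GDF15 upregulated and CXCL5 and IL11 downregulated, where 22.7% of all genes were. In untreated cells GDF15 was again the 1 member called, against 15.2% of 15339 genes. ATRA against vehicle called CXCL5 alone among the members in hyperoxia, where 2.21% of all genes were called. In normoxia edgeR and DESeq2 both called 0 members with ATRA, where 1.25% of all genes were called, although CXCL5 and GDF15 each had an unadjusted p under 0.05. The interaction called 0 members in edgeR and 1, GDF15, in DESeq2, against 0.14% of all genes in edgeR. The comparisons within an oxygen exposure and within a treatment share libraries. The comparison on untreated cells contrasts other libraries, but it was fitted together with the vehicle and ATRA libraries, which entered its estimate of spread. Its p-values are therefore not independent of the other comparisons. When only the untreated groups were fitted, edgeR called 58 genes in place of 2324.

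**Figure D3:**
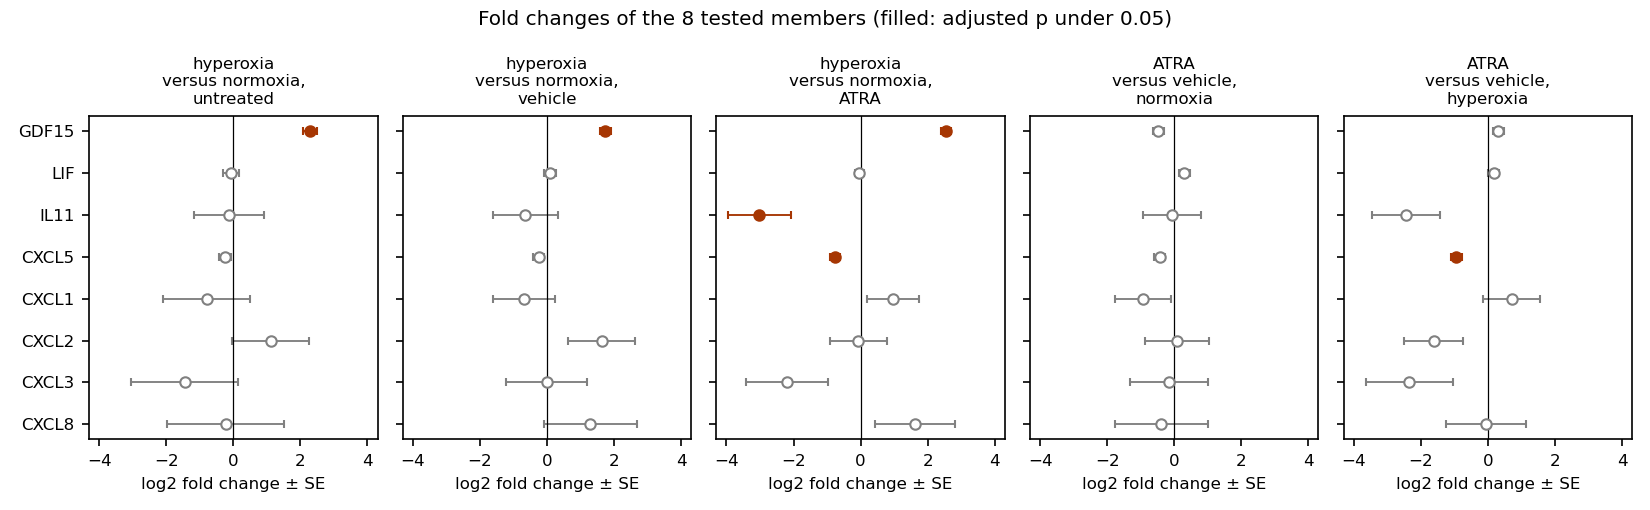
Log2 fold change (horizontal axes, bars ± SE) of the 8 tested members in 5 comparisons. Filled symbols have an edgeR adjusted p under 0.05. GDF15 lies at 2.29, 1.74 and 2.53 in the hyperoxia comparisons, CXCL5 at -0.95 for ATRA against vehicle in hyperoxia, and the bars of CXCL1, CXCL2, CXCL3, CXCL8 and IL11 are the widest.

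Per kilobase of transcript GDF15 was the most abundant member in every group. Its level was 336 ± 28.1 CPM per kb in hyperoxia vehicle and 100.2 ± 7.87 CPM per kb in normoxia vehicle libraries (SD, n = 2 each). CXCL5 and LIF followed, at 41.9 ± 6.09 and 31.5 ± 4.12 CPM per kb in hyperoxia vehicle and at 49.6 ± 3.83 and 29.4 ± 3.60 CPM per kb in normoxia vehicle libraries. The order of these 2 was reversed in hyperoxia ATRA libraries, where LIF had 35.4 ± 3.997 and CXCL5 21.6 ± 3.33 CPM per kb (SD, n = 3). With ATRA in normoxia they could not be separated, at 36.4 ± 5.99 and 36.7 ± 3.94 CPM per kb. CXCL2 reached 8.38 ± 1.97 CPM per kb in hyperoxia vehicle libraries, and at most 5.21 CPM per kb in another group. CXCL1 reached 3.46 CPM per kb, CXCL3 2.38, IL11 2.19 and CXCL8 1.59 in their highest groups. In hyperoxia untreated libraries the SD of each of CXCL1, CXCL3 and CXCL8 was larger than the mean. In normoxia vehicle libraries CXCL1 had 3.44 ± 1.01 and CXCL8 0.643 ± 0.00926 CPM per kb (SD, n = 2 each). The small SD of CXCL8 there rests on 2 libraries with 3 and 6 counts. It leaves out counting error and cannot be used to separate these genes.

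The receptors of the members outside the gp130 family were too low to test. CXCR1, CXCR2, ACKR1, CCR6, GFRAL and RET did not pass the filter on low counts, so 5 of the 11 receptor genes were tested. The 5 include OSMR, a receptor chain for oncostatin M, which is not among the members. IL6ST, the shared gp130 chain, had 409 and 440.4 CPM in hyperoxia vehicle and 190 and 204 CPM in normoxia vehicle libraries, without overlap. It rose in hyperoxia by a log2 fold change of 1.11 with vehicle (SE 0.15, edgeR adjusted p = 1.2e-05) and 0.62 in untreated cells (SE 0.15, adjusted p = 0.0112), and with ATRA gave 0.28 (SE 0.12, adjusted p = 0.0994). OSMR, the oncostatin M receptor chain that pairs with gp130, rose with vehicle (log2 fold change 0.57, SE 0.14, adjusted p = 0.00717) and gave 0.40 in untreated cells (adjusted p = 0.0757) and 0.12 with ATRA (adjusted p = 0.497).

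In hyperoxia both of these chains were lower with ATRA than with vehicle. The log2 fold change was -0.58 for IL6ST (SE 0.13, edgeR adjusted p = 0.0179) and -0.53 for OSMR (SE 0.13, adjusted p = 0.0298), and without hyperoxia ATRA replicate 1 only 1 receptor was called. Neither ATRA effect was shown to differ between oxygen exposures by edgeR (interaction adjusted p = 0.124 for IL6ST and 0.605 for OSMR), and DESeq2 called 1 of the 5 receptors in the interaction. LIFR rose in untreated hyperoxia (log2 fold change 1.40, SE 0.43, adjusted p = 0.0398) and gave 0.65 with vehicle (adjusted p = 0.211) and -0.19 with ATRA (adjusted p = 0.679). Without replicate 1 of the untreated hyperoxia libraries 1 receptor was called in place of 2. IL6R, the IL-6 receptor chain, and IL11RA, the IL-11 receptor chain, were called in no comparison, with log2 fold changes from -0.49 to 0.51 and from -0.33 to 1.51. The median over the 5 tested receptor genes, OSMR included, was 0.57 with vehicle for hyperoxia against normoxia, against 0.01 over all genes. For ATRA against vehicle in hyperoxia it was -0.49 against 0.00.

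Most of the NF-kB, AP-1 and C/EBP factor genes were called upward in hyperoxia under each treatment, and none of the 5 CXC members was, at the counts these libraries hold. Of the 15 NF-kB, AP-1 and C/EBP factor genes, all tested, 9 rose and 0 fell with vehicle, 9 rose and 0 fell in untreated cells, and 8 rose and 0 fell with ATRA, where 17.5%, 15.2% and 22.7% of all genes were called in either direction. With vehicle the smallest p-values were those of FOSL1 and JUN, both AP-1 subunits, and of TNFAIP3, an NF-kB target and inhibitor (log2 fold changes 2.73, 2.597 and 3.47). With ATRA they were those of FOSL1 (2.82), JUN (1.94) and ATF3 (3.59), and in untreated cells those of FOSL1 (2.96), JUN (2.47) and NFKB2 (2.12). The median of the list was 0.85 with vehicle against 0.01 over all genes, 0.44 against 0.01 with ATRA, and 1.01 against -0.10 in untreated cells. The untreated count stayed at 9 without replicate 1 of the hyperoxia libraries.

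ATRA against vehicle changed fewer of these factors, and fewer of all genes, with 1.25% called in normoxia and 2.21% in hyperoxia. In normoxia edgeR called 0 of the 15, of which 4 had an unadjusted p under 0.05, and DESeq2 called 1. In hyperoxia NFKB2, the precursor of the p52 subunit, fell (84.2 to 139 CPM against 223 to 234 CPM, log2 fold change -1.03, SE 0.16, edgeR adjusted p = 0.000844), and JUN fell (77.0 to 92.4 CPM against 128 to 136 CPM, log2 fold change -0.60, SE 0.16, adjusted p = 0.0498). The libraries of both genes did not overlap. Without hyperoxia ATRA replicate 1 the count was 1, and the median of the list was -0.31 with all libraries against 0.00 over all genes.

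**Figure D4:**
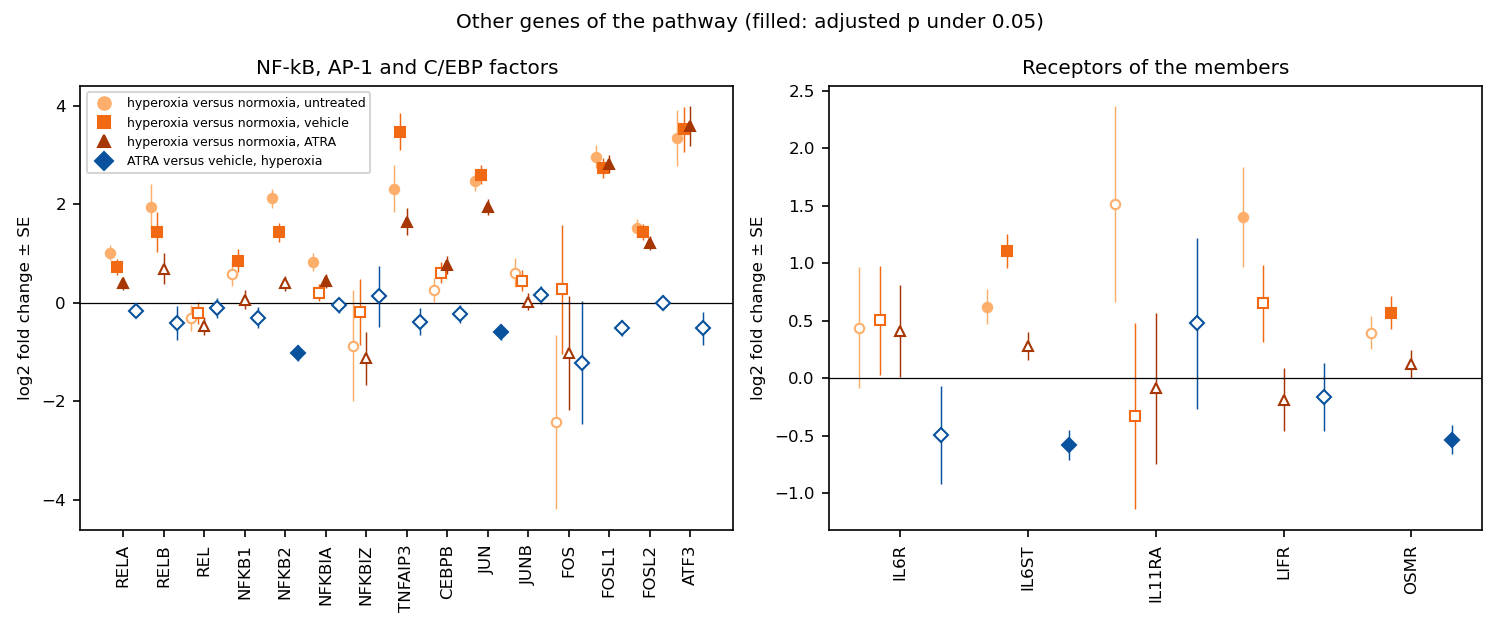
Log2 fold change (vertical axes, bars ± SE) of the NF-kB, AP-1 and C/EBP factor genes (left) and of the 5 tested receptor genes (right) in 4 comparisons. The receptor genes include OSMR, a chain for oncostatin M, which is not a member. Filled symbols have an edgeR adjusted p under 0.05. The hyperoxia comparisons of JUN, FOSL1, FOSL2, TNFAIP3 and ATF3 lie above 1, and those of ATRA against vehicle in hyperoxia are filled below 0 for NFKB2, JUN, IL6ST and OSMR.

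Genes downstream of gp130 moved in both directions in hyperoxia. Of 16 JAK-STAT genes 14 were tested, and with vehicle 3 rose and 3 fell, with ATRA 2 rose and 3 fell, and in untreated cells 2 rose and 4 fell (2 and 2 without replicate 1 of the hyperoxia libraries). Among all genes tested 17.5%, 22.7% and 15.2% were called in either direction. SOCS3, the feedback inhibitor induced by STAT3, rose by a log2 fold change of 1.76 with vehicle (edgeR adjusted p = 1.67e-05), 2.11 with ATRA (adjusted p = 2.62e-07) and 1.997 in untreated cells (adjusted p = 0.000126). STAT3 itself rose by 0.67, 0.61 and 0.92. The fibrinogen chains FGB and FGG, acute phase proteins, fell by 3.76 and 2.68 on the log2 scale with vehicle, and BCL3, an NF-kB cofactor, fell by 0.86. With ATRA in hyperoxia FGB fell by 4.39 and FGG by 2.91. The third of the 3, SERPINA3, a protease inhibitor of the acute phase, had 3 to 5 counts a library against 38 to 118. SERPINA3 passed the filter on low counts only through those normoxia libraries, so it is given as counts and its call is no support. In untreated cells FGB fell by 4.60, FGG by 2.37. LCN2 was also called lower there, with 0 counts in both hyperoxia libraries and 5 in each normoxia library, so that its fitted change is no bound.

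ATRA against vehicle called 5 of the 14 upward in normoxia and 2 in hyperoxia, and 0 downward at either exposure. Over all genes 1.25% and 2.21% were called in either direction. The genes with the smallest p-values in normoxia were SERPINA3, FGB and LCN2, the iron-scavenging lipocalin, and in hyperoxia LCN2 and BCL3. SERPINA3 and LCN2 passed the filter on low counts only through ATRA libraries, where they are high, so their calls are given as levels. The 5 called in normoxia include both and the 2 called in hyperoxia include LCN2, so these counts are inflated by that selection. SERPINA3 had 11.9 to 30.8 CPM in normoxia ATRA and 1.96 to 2.09 CPM in normoxia vehicle libraries. LCN2 had 11.6 to 18.3 CPM against 1.39 to 1.60 CPM in normoxia, and 4.22 to 11.4 CPM against 0.531 CPM in both vehicle libraries in hyperoxia. FGB rose by a log2 fold change of 1.27 in normoxia (edgeR adjusted p = 0.00374) and BCL3 by 1.06 in hyperoxia (adjusted p = 0.00645). The medians of the list were 0.51 in normoxia and 0.24 in hyperoxia, against 0.00 over all genes in both. In hyperoxia without hyperoxia ATRA replicate 1, 3 genes were called in place of 2.

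Regulators linked to GDF15 were called in both directions in hyperoxia, more of them upward. Of 12 p53 and stress response genes, all tested, 7 rose and 3 fell with vehicle, 8 rose and 2 fell with ATRA, and 6 rose and 1 fell in untreated cells (7 and 1 without replicate 1 of the hyperoxia libraries). The shares called over all genes were 17.5%, 22.7% and 15.2%. The cell cycle inhibitor CDKN1A rose by a log2 fold change of 3.34 with vehicle, 3.82 with ATRA and 3.69 in untreated cells, and MDM2, a ubiquitin ligase, by 2.81, 2.85 and 2.54. The death receptor FAS rose by 2.09 with vehicle and 2.90 in untreated cells, and SESN2, a stress sensor, by 2.53 with ATRA. ASNS, asparagine synthetase, fell by 1.59, 0.59 and 1.08 on the log2 scale, and the stress kinase relative TRIB3 fell by 0.71 with vehicle. The list median was 1.08 with vehicle, 1.25 with ATRA and 1.03 in untreated cells, against 0.01, 0.01 and -0.10 over all genes. ATRA against vehicle in edgeR called 1 of the 12 in normoxia, TRIB3, which fell by 1.36, where 1.25% of all genes were called. In hyperoxia, where edgeR called 2.21% of all genes, edgeR and DESeq2 both called 0, and 4 had an unadjusted p under 0.05. TRIB3 was also the 1 gene of the list called in the interaction (log2 value 1.33, edgeR adjusted p = 0.0364).

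Factors that control the decay of AU-rich cytokine messages were called in both directions. Of 11 genes tested, 2 rose and 1 fell with vehicle, 3 rose and 4 fell with ATRA and 2 rose and 2 fell in untreated cells (2 and 1 without replicate 1 of the hyperoxia libraries). Over all genes 17.5%, 22.7% and 15.2% were called in these comparisons, and with vehicle 3 of 11 is near that share. ZFP36L1, which promotes decay, rose by a log2 fold change of 1.32, 0.76 and 1.30, and DUSP1, the phosphatase of p38, by 0.85, 0.68 and 1.00. ELAVL1, which stabilises such messages, fell by 0.56, 0.52 and 1.01 on the log2 scale. ZFP36 rose by 0.94 with ATRA, KHSRP fell by 0.51 and HNRNPD by 0.46 with ATRA, and HNRNPD fell by 0.48 in untreated cells. Without hyperoxia ATRA replicate 1 the ATRA comparison had 3 rising and 2 falling. ATRA against vehicle called 0 of the 11 in edgeR at either oxygen exposure, with 1 gene at an unadjusted p under 0.05 and 1 called by DESeq2 in each. The list medians were 0.01, -0.37 and -0.41 in the 3 oxygen comparisons, against 0.01, 0.01 and -0.10 over all genes.

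Most other chemokine and cytokine genes were too low to test. Of 18 other chemokines only CCL2 and CXCL16 passed the filter, and CCL2, which attracts monocytes, was the 1 called, in untreated cells (44.7 and 79.9 CPM in hyperoxia against 17.6 and 20.7 CPM in normoxia, log2 fold change 1.71, SE 0.37, edgeR adjusted p = 0.00504). Without replicate 1 of the hyperoxia libraries 1 of the 2 chemokines was called. In vehicle libraries CCL2 had 32.0 and 34.5 CPM in hyperoxia and 28.9 and 31.3 CPM in normoxia. Of 34 other secreted cytokines 10 were tested, and in hyperoxia with vehicle CSF1, the macrophage growth factor, rose by a log2 fold change of 0.82 and TGFB1 by 0.55, while TNFSF15 fell by 2.05 and MIF by 0.87 on the log2 scale. With ATRA the same 4 genes were called in the same directions (CSF1 0.68, TGFB1 0.70, TNFSF15 -1.71 and MIF -0.65). In untreated cells, where 11 were tested, CSF1 rose by 1.82 and AREG, an EGF receptor ligand, fell by 0.98, and without replicate 1 of the hyperoxia libraries 4 of 15 tested were called in place of 2 of 11. The share of all genes called was 17.5% with vehicle, 22.7% with ATRA and 15.2% in untreated cells.

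ATRA against vehicle raised CSF1 in normoxia (log2 fold change 0.71, edgeR adjusted p = 0.0146), where 1.25% of all genes were called. In hyperoxia, where 2.21% of all genes were called, it raised CSF1 (0.57, edgeR adjusted p = 0.0353) and the angiogenic factor VEGFA (1.06, adjusted p = 0.0309). Without hyperoxia ATRA replicate 1 edgeR called 0 cytokines of that list, of which 4 had an unadjusted p under 0.05.

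The profiles of the tested members were described across the 14 labelled libraries. Profiles were compared by the root mean square difference between centred log2 CPM values, as a description over libraries that differ in depth. This difference grows with the spread of each gene, so a small value between genes of small spread does not show that they moved together. Nor does a large value between genes of unlike spread show that they moved apart. Whether the members as a set share a profile therefore cannot be decided by this measure. The genes nearest to GDF15 were PHLDA3 (0.245), FDXR (0.248) and DPYSL4 (0.283), where the median over 15338 genes was 1.29. Nearest to CXCL5 were LDHA (0.173), SLC26A2 (0.205) and PRDX1 (0.213), against a median of 0.680, and nearest to LIF were PDK2 (0.141), SRC (0.142) and DDOST (0.158), against 0.585. Among pairs of members the smallest difference was that of CXCL5 and LIF (0.604) and the largest that of IL11 and GDF15 (2.02). The SD of the gene itself was 0.442 for CXCL5 and 0.306 for LIF, against 1.20 for both IL11 and GDF15. The value for CXCL5 and LIF was above the median of LIF over all genes (0.585), so it does not mark these members as alike.

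For the 5 low-count members the nearest genes were no closer than 0.353, which is that of CXCL1 and OLFM2. CXCL1 was followed by CHMP4C (0.391) and PDE1A (0.408). CXCL2 was nearest to TNFSF12-TNFSF13 (0.486), OSER1-DT (0.588) and VAX1 (0.609), and CXCL3 to TMEM45A (0.418), TTLL9 (0.486) and LINC00482 (0.511). CXCL8 was nearest to LOC105375172 (0.488), MEF2B (0.571) and CDKAL1 (0.576), and IL11 to ITGA7 (0.494), TERT (0.548) and PUS3 (0.579). No library held more than 44 counts of any of the 5, so counting error and the prior count can make up much of these profiles. Their neighbours are a description of these values only.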

How the data were processed

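RNA-seq was performed on 15 libraries of A549 cells. According to the study's methods, the authors used Trimmomatic 0.38 for trimming, hisat2 for alignment (genome build hg38) and htseq for counting, and deposited raw counts in 1 table per library. The libraries were made with a directional kit, but the annotation release and how the counting handled strand and overlaps are not given in the sources used here, so whether antisense reads were counted apart is unknown. Rows that name no gene held 75.2 to 78.4% of the counts and were left out. The remaining depth was 2642377 to 5605072 counts per library.

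The test was that of edgeR 4.0.16, run under R 4.3.3 (filterByExpr with minimum count 10 and minimum total count 15, TMM, quasi-likelihood test, Benjamini-Hochberg adjustment over all genes tested, threshold 0.05). Vehicle and ATRA libraries (10) were fitted as 4 groups, and untreated libraries were compared in a model of 6 groups and 14 libraries. Levels are CPM with SD, and log2 CPM used a prior count of 2. Libraries were grouped by the treatment label, and 1 library whose labels conflict was left out. Alternatives were DESeq2 1.42.0, RLE size factors, no filter, other sets of libraries, pooled controls, a prior count of 0.5 and leaving out each library. The scripts were tested on simulated data. No 2 libraries held identical values. The members and the gene lists were chosen with earlier results of these data known.

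The text names the members, every receptor gene and, of each other list, up to 3 called genes with the smallest p-value in each direction, plus the 3 genes of nearest profile for each tested member; some genes of the lists are not reported here. CCL2 with vehicle, CXCL16, the overlapping genes and genes pointed out in a plot were named after their values were seen. Promoters came from the RefSeq table for GRCh38.p14 (9 of the 10 members matched), were searched with Python 3.11.15, and aligned with Biopython 1.88. Transcript lengths are those of MANE Select transcripts.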

Additional observations from a re-analysis of the deposited data

Results flagged for a closer look

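The library that entered no comparison, because its title names hyperoxia and its treatment label another treatment, held 4 members at more than 3 counts and at levels above every normoxia vehicle and untreated library. IL6, at 2 counts against 0 in those libraries, was under that floor. GDF15 was at 546 CPM, where these control libraries lay between 73.9 and 127 CPM. LIF was at 137 CPM against up to 130.3 CPM, CXCL2 at 9.25 CPM against up to 4.88 CPM, and CXCL8 at 2.42 CPM against up to 1.17 CPM. For CXCL2 and CXCL8 these levels rest on 42 and 11 counts. No group held enough libraries to test single libraries for standing apart.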

How the results depend on the processing

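GDF15 in the 3 oxygen comparisons and CXCL5 in hyperoxia against normoxia with ATRA kept their direction and their call under every alternative run, log2 fold changes lying between 1.63 and 1.99, 2.37 and 2.74, 2.03 and 2.50, and -0.89 and -0.67 in that order. For GDF15 in untreated cells the adjusted p of the alternatives, by edgeR or DESeq2, reached 0.0454, close to the threshold. Fitting only the groups compared gave 4665 called genes and 2 members with vehicle (2616 genes in the fit of 4 groups) and 58 genes in untreated cells. With all 14 libraries in 6 groups the counts of called genes were 1420 with vehicle and 1975 with ATRA between oxygen exposures, 70 in normoxia and 116 in hyperoxia for ATRA against vehicle, and 4 for the interaction. With pooled controls they were 182 for ATRA against vehicle in hyperoxia and 5 for the interaction, and CXCL8 for ATRA against vehicle in hyperoxia turned to 0.48. DESeq2 called 286 genes for ATRA against vehicle in normoxia and 96 for the interaction, 1 of them a member. Without a filter on low counts 300 genes were called for ATRA against vehicle in normoxia, 522 in hyperoxia and 91 for the interaction, 1 of them a member. When each library was left out in turn, edgeR called 1386 to 1523 for hyperoxia against normoxia with vehicle, 56 to 165 for ATRA against vehicle in normoxia, 83 to 449 for ATRA against vehicle in hyperoxia, 4 to 28 for the interaction and 969 to 7364 for hyperoxia against normoxia in untreated cells. The lowest counts for ATRA against vehicle were those without normoxia vehicle replicate 1 and hyperoxia vehicle replicate 1, and the highest count in untreated cells that without hyperoxia untreated replicate 2. The number of members called was then 0 to 1 for ATRA against vehicle in normoxia, 0 to 1 for ATRA against vehicle in hyperoxia, 0 to 1 for the interaction and 1 to 2 for hyperoxia against normoxia in untreated cells. Log2 fold changes that were uncalled with all libraries and then changed sign ranged, for hyperoxia against normoxia with vehicle, from -0.53 to 0.36 for CXCL3, from -0.075 to 0.21 for LIF and from -2.16 to 0.061 for CXCL1. For hyperoxia against normoxia with ATRA, they ranged from -0.82 to 0.58 for CXCL2 and from -0.13 to 0.083 for LIF. For ATRA against vehicle in normoxia, they ranged from -0.21 to 0.14 for CXCL3, from -0.62 to 1.13 for CXCL2, from -5.17 to 0.20 for CXCL8 and from -0.55 to 0.35 for IL11. For ATRA against vehicle in hyperoxia, they ranged from -0.82 to 0.46 for CXCL8 and from -0.063 to 2.16 for CXCL1. For the interaction, they ranged from -0.44 to 5.12 for CXCL8 and from -0.27 to 0.011 for LIF. For hyperoxia against normoxia in untreated cells, they ranged from -6.40 to 0.28 for CXCL1, from -5.25 to 0.85 for CXCL8, from -0.44 to 0.29 for LIF, from -0.60 to 0.17 for IL11 and from -6.46 to 0.21 for CXCL3. The cause of these changes was not tested, other than that fewer libraries were fitted. By edgeR, CXCL1 was then called in untreated cells without hyperoxia untreated replicate 2 (-6.40, adjusted p = 0.0211) and CXCL8 with ATRA without normoxia ATRA replicate 1 (6.41, adjusted p = 0.0453). Without hyperoxia untreated replicate 2 the remaining library had 0 counts of CXCL1, and without normoxia ATRA replicate 1 both remaining libraries had 0 counts of CXCL8, so that these fitted changes are no bounds. CXCL8 also passed the filter only through hyperoxia libraries, so that call is no support for a change. A prior count of 0.5 in place of 2 moved 17 of the 60 log2 CPM group levels, all of low-count members, by more than the SD. List counts without hyperoxia ATRA replicate 1 or hyperoxia untreated replicate 1 were chosen after seeing the data. No paired analysis was possible because the labels give no replicate numbers shared between groups.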

Other observations

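The remaining members in the library without a group had 395 counts of CXCL5 (87.0 CPM), 18 of IL11 (3.97 CPM), 12 of CXCL3 (2.64 CPM), and 2 each of CXCL1, CCL20 and IL6 (0.441 CPM). In the 4 hyperoxia vehicle and untreated libraries CXCL5 lay between 88.3 and 113 CPM and GDF15 between 380 and 460.0 CPM.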
